A study of Homo sapiens with 6 samples.

Results

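The 46 genes described here encode the proteins that tie integrins to actin filaments and that build, crosslink and contract those filaments: talin, vinculin and the other adaptors of focal adhesions, the zyxin, Ena/VASP and filamin families, formins, cofilin and profilin, non-muscle myosin II, and the small GTPases with the ROCK kinases that drive contraction. They were chosen by symbol from a list made with earlier results of these data known. All 46 were found among the 32029 genes in the count tables. Of these, 45 had 10 or more reads in at least 3 cultures, the minimum set for a fold change, and the same 45 passed the low-count filter of the test. CNN3, a calponin, was the 1 that did not.

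The cells were SW480, an established human colorectal adenocarcinoma line, and the study asked how gene expression changes when ZEB1, a zinc-finger transcription repressor that drives epithelial-mesenchymal transition, is silenced. Total RNA was collected 48 h after transfection with siNC, the control siRNA, in 3 cultures labelled WT, or with siZEB1, the siRNA against ZEB1, in 3 cultures labelled as ZEB1 knockdown. All 6 cultures therefore carry a transfected siRNA and come from 1 cell line. The siRNA sequence and the number of siRNAs against ZEB1 were not given in the sources used here, so an effect of ZEB1 loss and an effect of the siRNA itself cannot be told apart.

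Focal adhesions form where integrins bind the matrix outside the cell. Talin and kindlin activate integrins, vinculin strengthens the talin-actin link under load, and the complex of ILK, PINCH (LIMS1) and parvin adds another link to actin. FAK (PTK2), paxillin and p130Cas (BCAR1) turn adhesion into signals. RHOA acts through the formin DIAPH1 to lengthen filaments and through ROCK to raise myosin II activity, which pulls on the adhesions, while RAC1 and CDC42 favour branched protrusive actin. Epithelial cells and mesenchymal-like carcinoma cells use the same machinery in different amounts.

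The libraries held 19040636 to 22357633 reads, of which the members took 1.67% to 1.76%. ZEB1 was read at 58.6, 57.0 and 47.1 CPM in siNC and at 7.20, 6.86 and 8.46 CPM in siZEB1 (CPM is the usual library-scaled read count, here after TMM scaling). Its log2 fold change was −2.85 with an SE of 0.11 (adjusted p = 4.85e-12), and the targeted gene was lower in every siZEB1 culture. The 3 replicates of a group differed by more than counting noise in every pair, with chi-square values of 2.27 to 9.58 times their degrees of freedom, and the farthest pair was siNC replicates 1 and 3. Among markers of a colorectal epithelial line, KRT8 and KRT18 were high in every culture and the summed level of the 9 of 10 markers with a row was 4818 to 5441 CPM in siNC and 5332 to 6008 CPM in siZEB1. KRT20 and LGR5, of differentiated and of stem-like epithelium, were under 1 CPM in every culture, CDX2 fell by 1.30 on the log2 scale, and EPCAM, KRT19 and VIL1 rose by 3.05, 1.62 and 2.34 on that scale. Fibroblast markers summed to 13.4 to 14.9 CPM in siNC and 13.3 to 15.3 CPM in siZEB1, leukocyte markers stayed under 1 CPM and endothelial markers under 3 CPM, and CDX1, DCN, PTPRC and CDH5 had no row. Of the epithelial markers, EPCAM, KRT19, VIL1 and ASCL2 were higher in siZEB1 at an adjusted p of 0.05, and CDX2 and LGR5 were lower. KRT8, KRT18 and KRT20 did not pass that threshold, and the summed level overlapped between the groups. Of the 2 fibroblast markers tested, PDGFRB was higher at that threshold (log2 fold change 0.42) and COL1A1 did not pass it (−0.22). The part of these markers in the members' values was not tested.

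Silencing ZEB1 was followed by changes in both directions among the members. By edgeR's quasi-likelihood test with Benjamini-Hochberg adjustment over all 14996 genes tested, 14 members were higher in siZEB1, 15 were lower and 16 were not called at an adjusted p of 0.05. The called share was 64.4% of the 45 members tested, beside 40.2% of all genes (19.0% higher and 21.2% lower). The members were not matched to all genes by read depth, and the part of depth in this difference was not tested. The CPM of the 2 groups did not overlap for 32 members, 71.1% of those tested, beside 49.5% of all genes. The changes were small. Among the members only RAC1 rose by more than 1.5-fold with an unadjusted p under 0.001, a rule met upward by 4.52% of all genes, and only TNS1, VCL and LIMS1 fell by as much, a rule met downward by 6.70% of all genes. The median log2 fold change of the members was −0.0084, beside −0.0055 over all genes, and the median size of change regardless of sign was 0.22 beside 0.25. In bulk RNA, a change in the share of cells that express a gene and a change in the amount per cell cannot be told apart. The p-values measure the spread between these 3 cultures and 3 cultures, described by the study as biological replicates.

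By role, the calls were as follows, to be read against the 19.0% of all genes called higher and the 21.2% called lower. Of the 13 integrin-linked adaptors, 9 fell and 1 rose. Of the 10 zyxin, Ena/VASP and crosslinking genes, 5 fell and 2 rose. Of the 6 genes of actin assembly and turnover, 3 rose and 1 fell. Of the 9 tested genes of myosin II and its thin-filament regulators, 4 rose and 0 fell. The share called was 76.9%, 70.0%, 66.7% and 44.4% in this order, beside 40.2% of all genes, and the last of these is near that background. The median log2 fold changes of these groups were −0.29, −0.20, 0.22 and 0.13 in the same order. The difference between the groups was not tested. Over 13 other settings of the analysis that kept the threshold on the adjusted p, the adaptors lower numbered 7 to 9, the crosslinking genes lower 4 to 5, the assembly genes higher 3 to 4 and the myosin genes higher 3 to 6, and no myosin gene was called lower in any of those settings. Under the rule of a fold over 1.5 with an unadjusted p under 0.001, 3 adaptors were lower, and no crosslinking, assembly or myosin gene was called in either direction.

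**Figure D1:**
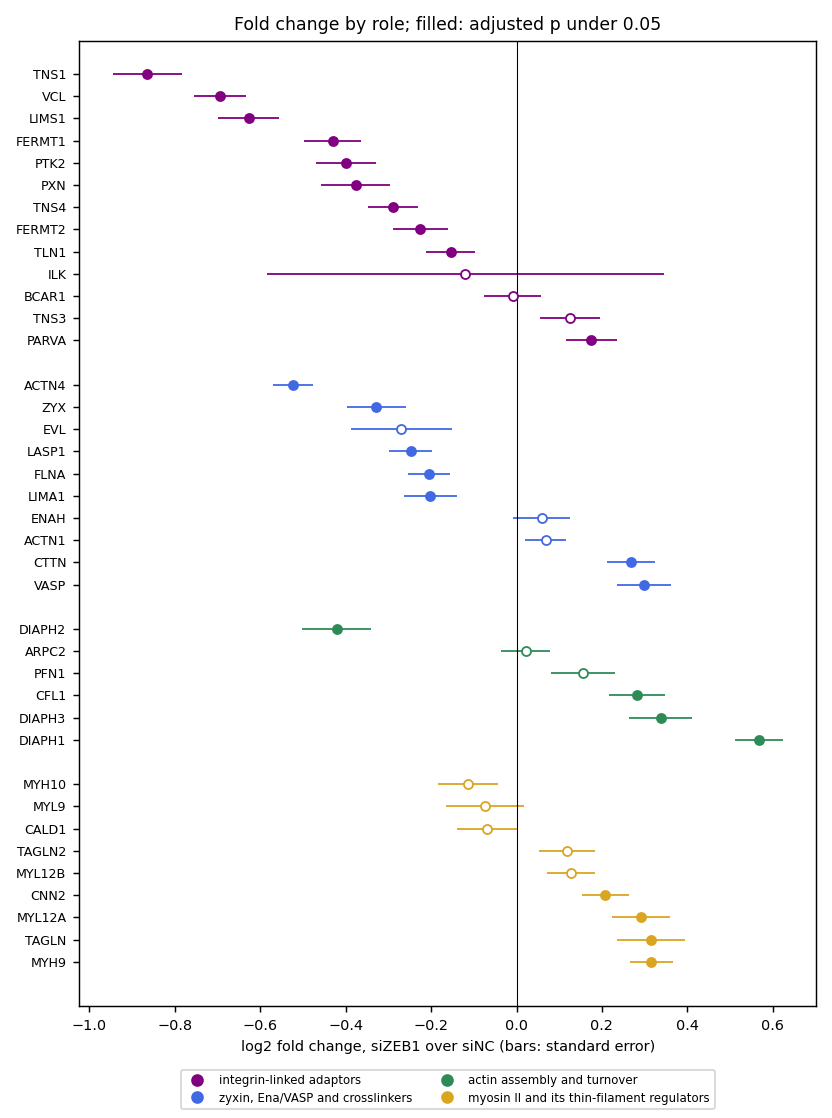
Log2 fold change of siZEB1 over siNC (horizontal axis) for the tested members of 4 role groups, grouped and coloured by role, with bars for the standard error. Filled points passed an adjusted p of 0.05. Filled points of the integrin-linked adaptors lie to the left of 0 except PARVA, and those of the myosin II group lie to the right.

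Promoter sequence was read for the 38 members found in the RefSeq promoter table (build GRCh38.p14, 250 bases before to 50 after the gene start). The E-box that ZEB1 binds, searched as CACCTG and its reverse complement CAGGTG, was present in 8 of them (21.1%), beside 18.6% of the promoters of all genes tested and 20.6% of all 27305 promoters in the table. It was present in 2 of the 10 promoters of members that rose and in 2 of the 12 of members that fell. Over all genes it was present in 21.7% of the promoters of genes that rose and in 15.9% of those that fell. The 4 promoters of called members are shown with the E-box in capitals. The windows lie at chr19:45507269-45507294 (VASP, plus strand), chr1:22052660-22052685 (CDC42, plus), chr12:120265928-120265953 (PXN, minus) and chr12:50283479-50283504 (LIMA1, minus), and the E-box starts at −200, −39, −213 and 26 relative to the gene start.
VASP: acttgcccctCAGGTGggggtgattc
CDC42: gcgctgacgtCAGGTGcgtgcccctg
PXN: gggagccgccCACCTGcccgcttagc
LIMA1: ttggtcgcgaCAGGTGcgctaggtag

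VASP and CDC42 rose, PXN and LIMA1 fell, and the other members with this word (BCAR1, EVL, MYH10 and RHOC) were not called. The CArG box, the element bound by SRF in many genes of the actin cytoskeleton, was searched on both strands and found in 3 of the 38 promoters (7.89%), beside 1.04% of the promoters of genes tested (108 of 10428) and 1.29% of all promoters. The windows are shown with the box in capitals because SRF and its actin-sensing coactivators are the textbook regulators of these genes. They lie at chr19:1026511-1026536 (CNN2, plus strand), chrX:154374711-154374736 (FLNA, minus) and chr2:11345493-11345518 (ROCK2, minus), with the box at −89, −94 and −73 from the gene start.
CNN2: cctccaggCCTTATAAGGacatttgc
FLNA: caattttaCCAATTAAGGctttctcg
ROCK2: atgtacttCCTTAAATGGgtttactg

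CNN2 rose, FLNA fell and ROCK2 was not called. A match describes the letters of the window only, and binding at these positions was not measured here.

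The adaptors that join integrins to actin were mostly lower after siZEB1, led by TNS1, VCL and LIMS1. TNS1, tensin 1, which links integrin tails to actin in fibrillar adhesions, was read at 37.2, 37.1 and 34.5 CPM in siNC and at 21.2, 19.9 and 18.7 CPM in siZEB1. Every siZEB1 culture was well below every siNC culture, and the mean fell by 45.0% (log2 fold change −0.86 ± 0.082 SE, adjusted p = 2.93e-07). The gene (ENSG00000079308) lies on chromosome 2 at 217799588 to 218033982 on the minus strand (GRCh38, GENCODE 29). VCL, vinculin, the load-bearing partner of talin, was read at 434, 454 and 396 CPM in siNC and at 267, 255 and 272 CPM in siZEB1. The groups were again separate, with a mean of 428 ± 29.7 CPM (SD, n = 3) against 265 ± 8.87 CPM, a fall of 0.69 on the log2 scale (SE 0.060, adjusted p = 1.11e-07). VCL (ENSG00000035403) lies on chromosome 10 at 73995193 to 74121363 on the plus strand, and 11.1% of its exonic bases overlap a gene on the opposite strand. LIMS1, or PINCH1, the LIM-domain partner of ILK, was read at 505, 430.2 and 441 CPM in siNC and at 280.4, 283 and 328 CPM in siZEB1. The siZEB1 cultures were lower than every siNC culture, and siZEB1 replicate 3 was the highest of them (log2 fold change −0.63 ± 0.072, adjusted p = 2.54e-06). LIMS1 (ENSG00000169756) lies on chromosome 2 at 108534355 to 108687246 on the plus strand.

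Kindlins, FAK and paxillin were also lower. FERMT1, kindlin-1, the epithelial integrin activator, was read at 122, 120.1 and 112 CPM in siNC and at 85.5, 84.2 and 92.6 CPM in siZEB1, and it fell by 0.43 ± 0.066 on the log2 scale (adjusted p = 6.19e-05). FERMT2, kindlin-2, the more widely expressed form, was read at 147, 143 and 130.2 CPM in siNC and at 120.2, 117 and 122 CPM in siZEB1 and fell by 0.22 (adjusted p = 0.00965). Both kindlins were lower in each siZEB1 culture than in any siNC culture. PTK2, the kinase FAK, was read at 51.0, 55.0 and 54.7 CPM in siNC and at 40.6, 39.5 and 41.9 CPM in siZEB1 (log2 fold change −0.40 ± 0.070, adjusted p = 2.22e-04). PXN, paxillin, the scaffold on which FAK docks, was read at 57.1, 66.6 and 65.1 CPM in siNC and at 52.2, 43.9 and 49.3 CPM in siZEB1 (log2 fold change −0.38 ± 0.081, adjusted p = 0.00131). The groups did not overlap for either gene. Of PXN's exonic bases, 12.4% overlap genes on the opposite strand. TNS4, a short tensin that lacks the actin-binding part, was read at 263, 294 and 280.1 CPM in siNC and at 231, 231 and 223 CPM in siZEB1 and fell by 0.29 on the log2 scale (adjusted p = 7.21e-04). TLN1, talin-1, fell by 0.15 (adjusted p = 0.0433), and this call was lost when siNC replicate 2, siZEB1 replicate 2 or siZEB1 replicate 3 was left out (adjusted p up to 0.222). The TLN1 call was also lost with DESeq2, with median-of-ratios size factors or with the replicate number as a block.

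PARVA, alpha-parvin, was the adaptor that rose, from 113 ± 1.75 CPM (SD, n = 3) to 128 ± 3.34 CPM (log2 fold change 0.17 ± 0.060, adjusted p = 0.0271). LIMS1, which also belongs to the ILK complex, moved the other way. The PARVA call was lost without siNC replicate 1 or 2 and without siZEB1 replicate 1 or 2, with adjusted p up to 0.119. It was also lost when no filter on low counts was used and with the replicate number as a block. BCAR1, the p130Cas docking protein, was not called (log2 fold change −0.0084 ± 0.067, adjusted p = 0.934). TNS3, another tensin, was read at 78.2, 82.2 and 72.2 CPM in siNC and at 88.1, 79.8 and 85.6 CPM in siZEB1 and was not called either (0.12 ± 0.070, adjusted p = 0.17). ILK, the pseudokinase at the centre of the ILK, PINCH and parvin complex, had 19, 7 and 11 reads in siNC and 13, 5 and 13 reads in siZEB1. The groups overlapped, and the depth cannot show a change (log2 fold change −0.12 ± 0.47, adjusted p = 0.863). Genes on the opposite strand overlap 78.5% of ILK's exonic bases, and whether reads were counted by strand is not given in the sources used here, so the low count of ILK is uncertain as a measure of its RNA.

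In GENCODE 29, 42 members had a 3′UTR in the transcript read, the one with the longest coding sequence. PXN, ACTN1 and PFN1 were not among them. The word GAACACA was held by 3 of the 42 (7.14%), beside 1299 of the 12139 genes tested with such a 3′UTR (10.7%). This word was picked in earlier work on these same libraries with their results known, so its counts are a description. Of the 1299 genes with it, 587 fell and 159 rose (median log2 fold change −0.23), and of the 10840 genes without it, 2320 fell and 2364 rose (median 0.0064). The median 3′UTR length was 2849 bases with the word and 860 without it. Among the members, VCL, PTK2 and TNS3 held it, of which VCL and PTK2 fell and TNS3 was not called. The sites of VCL (chr10:74118937-74118961, plus strand) and TNS3 (chr7:47277511-47277535, minus strand) are shown with the word in capitals.
VCL: ccatcccatGAACACActgtgtcct
TNS3: gcccttctgGAACACAgcagggcct

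Of the 39 members that did not hold the word in the transcript read, 14 rose and 12 fell, TNS1, LIMS1 and ACTN4 among the latter. Other transcripts were not read, and the 3′UTR read was short for some members, with 449 bases for LIMS1, 74 for RAC1 and 22 for DIAPH2. The part of this word in the fall of VCL and PTK2 was not tested.

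**Figure D2:**
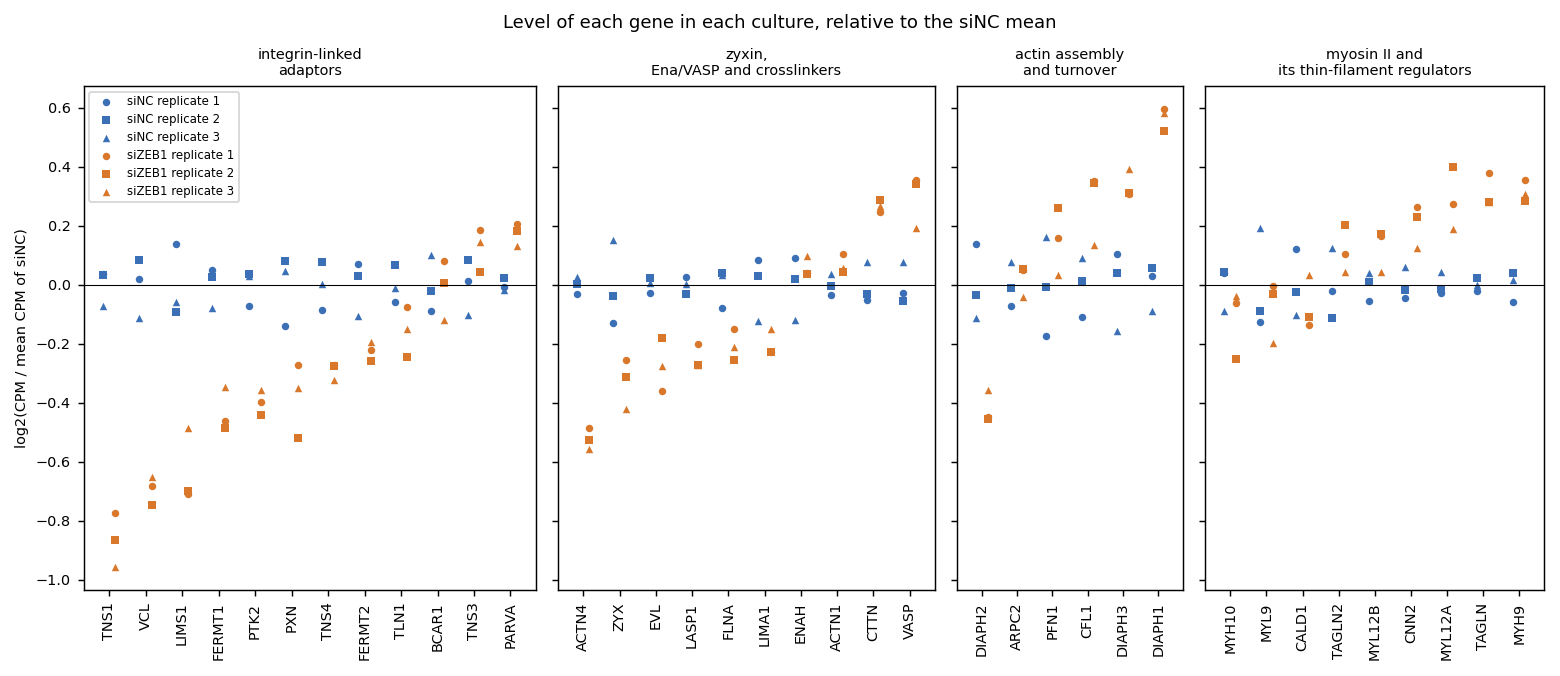
Level of the genes of 4 role groups in each of the 6 cultures as log2 of its CPM over the siNC mean (vertical axis), grouped by role, with siNC in blue and siZEB1 in orange. ILK and CNN3 are left out for their low reads. The orange points of TNS1, VCL, LIMS1 and ACTN4 sit below every blue point of the same gene, and those of DIAPH1 sit above.

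Among the zyxin, Ena/VASP and crosslinking genes, ACTN4, ZYX, LASP1, FLNA and LIMA1 were lower and VASP and CTTN were higher. ACTN4, alpha-actinin-4, which bundles actin filaments, was read at 2067, 2120.1 and 2154 CPM in siNC and at 1510.0, 1466 and 1436 CPM in siZEB1. The 3 values within each group lay close together and the groups were far apart, and the mean fell by 30.4% (log2 fold change −0.52 ± 0.046, adjusted p = 1.37e-07). ACTN4 (ENSG00000130402) lies on chromosome 19 at 38647649 to 38731583 on the plus strand, and 14.2% of its exonic bases overlap a gene on the opposite strand. ACTN1, the related alpha-actinin-1, was read at 998, 1019 and 1048 CPM in siNC and at 1099, 1053 and 1063 CPM in siZEB1. These groups did not overlap, yet the difference was small and not called (log2 fold change 0.069 ± 0.048, adjusted p = 0.274). ZYX, zyxin, which marks mature adhesions and recruits Ena/VASP proteins, fell from 431 ± 43.5 CPM (SD, n = 3) to 343 ± 19.8 CPM (adjusted p = 0.00108). FLNA, filamin A, which crosslinks filaments into networks, fell by 13.2% from a mean of 3020.4 CPM (adjusted p = 0.00289). LASP1, a LIM and SH3 protein of actin-rich structures, fell by 0.25 on the log2 scale (adjusted p = 8.24e-04). LIMA1, also called EPLIN, which stabilises filaments at junctions, fell by 0.20 (adjusted p = 0.0151), a call that was lost without siNC replicate 1 or 2 and without siZEB1 replicate 1 or 2 (adjusted p up to 0.0766).

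VASP, which protects growing filament ends from capping, was read at 202, 198 and 217 CPM in siNC and at 263, 260.4 and 235 CPM in siZEB1. The siZEB1 cultures were all higher, with replicate 3 the nearest to siNC (log2 fold change 0.30 ± 0.063, adjusted p = 0.00104). Neither of the other family members was called. ENAH, or Mena, was read at 108, 103 and 93.4 CPM in siNC and at 104, 104 and 109 CPM in siZEB1, with overlapping groups (adjusted p = 0.521). EVL was read at 7.81, 8.08 and 7.99 CPM in siNC and at 6.20, 7.02 and 6.58 CPM in siZEB1, and here the groups did not overlap (log2 fold change −0.27 ± 0.12, adjusted p = 0.0796). CTTN, cortactin, which stabilises branched actin at the cell edge, rose from 226 ± 11.1 CPM (SD, n = 3) to 272 ± 3.62 CPM (adjusted p = 0.00113).

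In the group of actin assembly and turnover, the 3 diaphanous formins moved in different directions. DIAPH1, the RHOA effector that nucleates and lengthens unbranched filaments, was read at 326, 332 and 300.4 CPM in siNC and at 484, 459 and 478 CPM in siZEB1. All siZEB1 cultures were above all siNC cultures and the mean rose by 48.2% (log2 fold change 0.57 ± 0.056, adjusted p = 5.02e-07). DIAPH1 (ENSG00000131504) lies on chromosome 5 at 141515016 to 141619055 on the minus strand. DIAPH3 was read at 70.1, 67.1 and 58.5 CPM in siNC and at 80.8, 81.0 and 85.7 CPM in siZEB1 and rose by 0.34 ± 0.074 on the log2 scale (adjusted p = 0.0015). DIAPH2 was read at 46.8, 41.5 and 39.3 CPM in siNC and at 31.1, 31.0 and 33.2 CPM in siZEB1 and fell by 0.42 (SE 0.081, adjusted p = 4.92e-04). For neither gene did the groups overlap. CFL1, cofilin-1, which severs old filaments, was read at 571, 622 and 657 CPM in siNC and at 787, 785 and 678 CPM in siZEB1 (log2 fold change 0.28 ± 0.066, adjusted p = 0.00242), and siZEB1 replicate 3 lay closest to the siNC range. Of CFL1's exonic bases, 19.0% overlap genes on the opposite strand. PFN1, profilin-1, which feeds actin monomers to formins, was not called (log2 fold change 0.16 ± 0.075, adjusted p = 0.113), and it was called higher without siNC replicate 3 (adjusted p = 0.0029) and without siZEB1 replicate 3 (adjusted p = 0.0312). ARPC2, a core subunit of the Arp2/3 complex that branches filaments, was not called (0.022 ± 0.057, adjusted p = 0.795).

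Of the myosin II genes, MYH9 and MYL12A rose. MYH9, the heavy chain of non-muscle myosin IIA, was read at 755, 807 and 794 CPM in siNC and at 1004, 956 and 972 CPM in siZEB1. The siZEB1 cultures were all higher than the siNC cultures (log2 fold change 0.32 ± 0.050, adjusted p = 8.03e-05). MYH10, the heavy chain of non-muscle myosin IIB, was read at 132, 132 and 120.4 CPM in siNC and at 123, 107 and 125 CPM in siZEB1, with overlap and no call (log2 fold change −0.11 ± 0.070, adjusted p = 0.212). MYL12A, a regulatory light chain whose phosphorylation switches the motor on, was read at 96.1, 97.0 and 101 CPM in siNC and at 119, 129 and 112 CPM in siZEB1 (log2 fold change 0.29 ± 0.067, adjusted p = 0.00229). The groups did not overlap, and siZEB1 replicate 2 was the highest. The neighbouring light chain MYL12B was read at 366, 383 and 391 CPM in siNC and at 426, 428 and 392 CPM in siZEB1 and was not called (log2 fold change 0.13 ± 0.056, adjusted p = 0.078), but it was called higher without siNC replicate 3 (adjusted p = 0.0454) or siZEB1 replicate 3 (adjusted p = 0.0268). MYL12A and MYL12B are near-identical copies, and how the counting shared reads between them is not given in the sources used here. MYL9, the light chain typical of smooth muscle and myofibroblasts, was read at 33.4, 34.3 and 41.7 CPM in siNC and at 36.3, 35.7 and 31.8 CPM in siZEB1, with overlapping groups (adjusted p = 0.556).

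TAGLN, transgelin or SM22, a calponin-family marker of smooth muscle, was read at 21.0, 21.7 and 21.3 CPM in siNC and at 27.8, 26.0 and 25.9 CPM in siZEB1. The groups were separate (log2 fold change 0.31 ± 0.080, adjusted p = 0.00437), and 11.4% of the exonic bases of TAGLN overlap a gene on the opposite strand. CNN2, calponin-2, was read at 546, 556 and 587 CPM in siNC and at 677, 661 and 614 CPM in siZEB1, without overlap, and rose by 0.21 ± 0.055 (adjusted p = 0.0059), a call that did not hold when siZEB1 replicate 1 was removed (adjusted p = 0.0513). TAGLN2, the widely expressed transgelin, was read at 355, 333 and 393 CPM in siNC and at 388, 414 and 371 CPM in siZEB1 and was not called (0.12 ± 0.065, adjusted p = 0.159), but it was called higher without siNC replicate 3 (adjusted p = 0.0156). CALD1, caldesmon, which restrains myosin on the filament, was not called (−0.069 ± 0.070, adjusted p = 0.464). CNN3 had 7, 3 and 5 reads in siNC and 6, 7 and 5 reads in siZEB1, too few for a fold change.

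RAC1 rose the most of all 45 tested members. The gene, which drives lamellipodia through the WAVE complex, was read at 277, 299 and 320.3 CPM in siNC and at 506, 507 and 476 CPM in siZEB1. Every siZEB1 culture was above every siNC culture, and the mean rose by 66.2% from 299 ± 21.8 CPM (SD, n = 3) to 496 ± 17.5 CPM (log2 fold change 0.73 ± 0.061, adjusted p = 6.19e-08). RAC1 (ENSG00000136238) lies on chromosome 7 at 6374523 to 6403977 on the plus strand, no other annotated gene overlaps its exons, and the rows of its 2 pseudogenes held 0.625% as many reads as RAC1. RHOB, an inducible endosomal relative of RHOA, was read at 779.5, 763 and 816 CPM in siNC and at 969, 929 and 908 CPM in siZEB1 (log2 fold change 0.25 ± 0.051, adjusted p = 7.78e-04). RHOA, the main activator of ROCK, was read at 676, 629 and 672 CPM in siNC and at 739.6, 754 and 711 CPM in siZEB1 (log2 fold change 0.16 ± 0.052, adjusted p = 0.023). For both, each siZEB1 culture exceeded each siNC culture. The RHOA call was lost without siNC replicate 2, siZEB1 replicate 1 or siZEB1 replicate 2, with adjusted p up to 0.14. CDC42, which drives filopodia, rose from 226 ± 8.22 CPM (SD, n = 3) to 255 ± 5.71 CPM (adjusted p = 0.0198), and its call was lost without the same 3 cultures in turn (adjusted p up to 0.0973). Another gene on the same strand overlaps 57.1% of the exonic bases of CDC42, so its count depends on how shared reads were assigned.

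RHOC, the relative of RHOA best known from invasive carcinomas, was read at 64.1, 69.4 and 80.4 CPM in siNC and at 74.0, 75.2 and 60.4 CPM in siZEB1. The values of the 2 groups were interleaved (log2 fold change −0.028 ± 0.092, adjusted p = 0.835). ROCK1 was read at 183, 179.7 and 149.6 CPM in siNC and at 163, 157 and 184 CPM in siZEB1 (adjusted p = 0.823), and ROCK2 at 245, 226 and 181 CPM and 221, 216 and 262 CPM (log2 fold change 0.10 ± 0.094, adjusted p = 0.425). For both kinases siNC replicate 3 was the lowest culture of all 6, and the spread within siNC exceeded the difference between the means. Neither kinase was called.

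Relatives within a family were then compared as the log2 ratio of their reads inside each culture, a measure that does not depend on how the libraries are scaled. For single genes, the groups did not overlap for 71.1% of the members tested and 49.5% of all genes. No such share was computed for pairs of other genes. With that limit, the groups did not overlap for 12 of the 16 pairs computed. In an exact two-sided permutation test each of these 12 reached p = 0.1, the smallest p that 3 against 3 cultures can give, or 0.133 after Benjamini-Hochberg adjustment over the 16 pairs, so the design cannot pass 0.05. The ratio of DIAPH2 to DIAPH1 was −2.80, −3.00 and −2.93 in siNC and −3.96, −3.89 and −3.85 in siZEB1, a difference of −0.99 with a pooled SD of 0.081. The ratio of ACTN4 to ACTN1 was 1.05, 1.06 and 1.04 in siNC and 0.46, 0.48 and 0.43 in siZEB1, a difference of −0.59 with a pooled SD of 0.016. Alpha-actinin-4 was thus the more abundant read of the pair in all 6 cultures, by less in siZEB1. The ratio of MYH10 to MYH9 was −2.52, −2.61 and −2.72 in siNC and −3.03, −3.15 and −2.96 in siZEB1, so the reads shifted toward the myosin IIA heavy chain.

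Among the tensins, TNS1 lost ground to TNS4 (difference of −0.58, pooled SD 0.089) while TNS3 gained (0.41, pooled SD 0.093). MYL9 and MYL12B both lost ground to MYL12A (−0.36 and −0.16), and EVL lost ground to ENAH (−0.33). FERMT2 gained on FERMT1 (0.21), ROCK2 on ROCK1 (0.13) and RHOB on RHOA (0.093), each without overlap. The ratio of DIAPH3 to DIAPH1 fell by 0.23 although both genes rose. The groups overlapped for RHOC over RHOA, TAGLN over TAGLN2, VASP over ENAH and CNN3 over CNN2, with differences of −0.19, 0.19, 0.24 and 0.22.

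**Figure D3:**
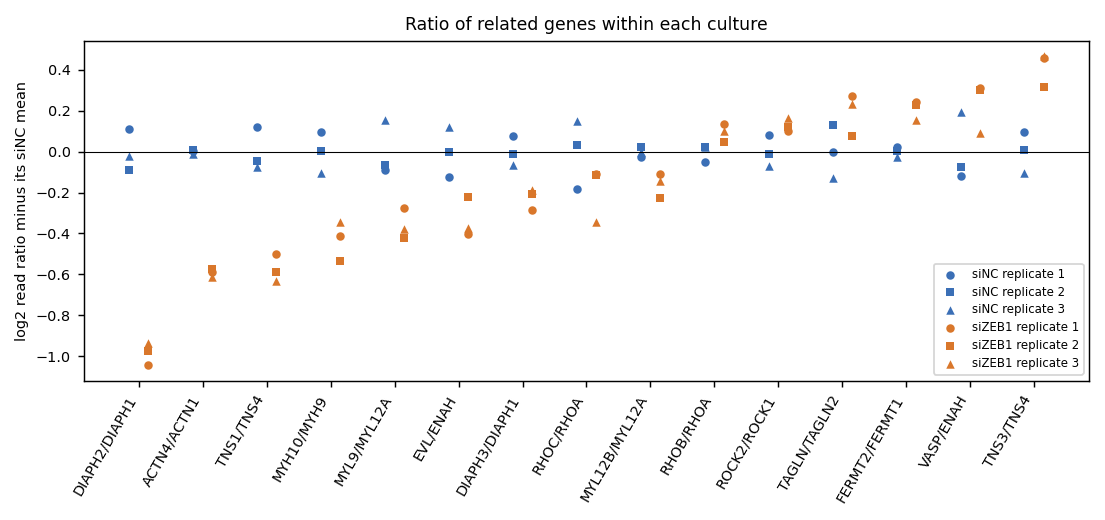
Log2 ratio of the reads of 2 related genes in each culture minus its siNC mean (vertical axis) for 15 pairs, with siNC in blue and siZEB1 in orange. CNN3 over CNN2 is left out for low reads. The DIAPH2/DIAPH1 points of siZEB1 lie near −1, and the ACTN4/ACTN1 points lie in 2 narrow bands.

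Levels were compared between genes as CPM per kilobase of exon, with the exons of all annotated transcripts of a gene joined. This length can exceed that of the transcript expressed, so the order of the members depends on the annotation. By this measure ACTN4 was the highest member in siNC at 347 CPM per kb and fell to 241 in siZEB1. RHOB went from 331 to 394. FLNA (285 to 248), RHOA (255 to 285) and PFN1 (248 to 276) followed. RHOB was thus the highest in siZEB1 by this measure. RAC1 rose from 95.9 to 159 CPM per kb, still below RHOA. TNS1 went from 2.23 to 1.23, and EVL, ILK and CNN3 were the lowest members, all under 1 CPM per kb in both groups. Summed over a role, the adaptors took 2399 to 2507 CPM in siNC and 1898 to 1997 CPM in siZEB1, and the crosslinking genes took 7801 to 8224 CPM and 6806 to 7126 CPM. Both sums were lower in every siZEB1 culture. A sum weighs abundant genes most. In the crosslinking group these were FLNA (mean of 3020 CPM in siNC and 2620 CPM in siZEB1) and ACTN4 (2114 and 1471 CPM), while VASP and CTTN rose. The sums of actin assembly genes (1767 to 1957 against 2102 to 2291 CPM) and of myosin II genes (2476 to 2597 against 2805 to 2944 CPM) were higher in every siZEB1 culture. The sum over all 46 members overlapped between the groups, at 16972 to 17617 CPM in siNC and 16573 to 17270.3 CPM in siZEB1.

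Other genes of the same machinery were read beside the members. They were listed for their function, but with earlier results of these data known. Of 112 symbols, 2 of them older names of the MRTF genes, 110 had a row and 108 were tested, of which 24 rose and 34 fell. The called share was 53.7%, beside 40.2% of all genes (19.0% higher and 21.2% lower). The median of their log2 fold changes was −0.017. Of 31 other adhesion plaque proteins, 15 fell and 4 rose (61.3% called, median log2 fold change −0.19). The largest fall among them was PDLIM7, a LIM protein of stress fibres, at 99.9, 109.7 and 121 CPM in siNC and 60.1, 60.5 and 54.8 CPM in siZEB1 (log2 fold change −0.91 ± 0.077, adjusted p = 7.76e-08). LIMS2, or PINCH2, fell by 0.79 (adjusted p = 0.00119), the same direction as LIMS1. Of the Arp2/3, WAVE and cofilin pathway, 7 of 34 were higher and 6 lower, a called share of 38.2% that is near that of all genes. TESK1, a kinase that inactivates cofilin, rose by 0.56 ± 0.092 (adjusted p = 1.10e-04).

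Of the regulators of myosin II, 4 of 14 were higher and 4 lower (57.1% called, beside 40.2% of all genes). PPP1CB, the catalytic subunit of myosin phosphatase, rose from 181 ± 15.3 CPM (SD, n = 3) to 266 ± 9.29 CPM (adjusted p = 3.92e-06), and CNN1, the smooth muscle calponin, went from 16, 23 and 16 reads to 6, 5 and 6 reads (log2 fold change −1.53 ± 0.40, adjusted p = 0.00501). ARHGDIB, best known from blood cells, had 11, 12 and 8 reads in siNC and 38, 46 and 27 reads in siZEB1 (log2 fold change 1.96 ± 0.32, adjusted p = 9.84e-05). RHOD rose by 0.86 ± 0.13 (adjusted p = 4.76e-05), while the atypical GTPases RHOU and RHOF fell by 1.30 and 1.24 (adjusted p = 1.71e-06 and 1.57e-05). Of the exonic bases of RHOF, 71.0% overlap other genes, so its count depends on how strand and shared reads were handled. CNN1, ARHGDIB, RHOD, RHOU and RHOF were each under 15 CPM in every culture.

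The filament subunit itself was higher. ACTB, beta-actin, was read at 4855, 4968 and 5412 CPM in siNC and at 7788, 7664 and 6879 CPM in siZEB1, a rise of 46.6% in the mean (log2 fold change 0.55 ± 0.054, adjusted p = 4.49e-07). ACTG1, gamma-actin, rose by 0.20 ± 0.049 (adjusted p = 0.00402). The groups did not overlap for either actin. The coding sequences of the 2 actins are near-identical, so reads may be split between them and their many pseudogenes. MRTFA and MRTFB, the coactivators that actin monomers hold out of the nucleus, rose by 0.30 ± 0.082 and 0.41 ± 0.11 (adjusted p = 0.00791 and 0.00499). SRF, their DNA-binding partner, was not called (0.048 ± 0.071, adjusted p = 0.621).

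**Figure D4:**
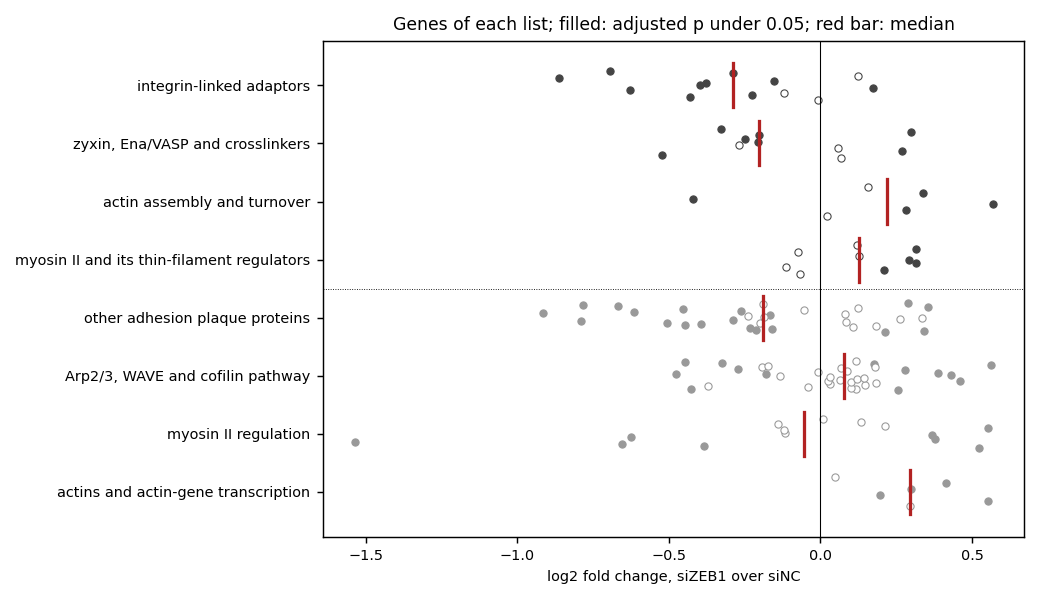
Log2 fold change of siZEB1 over siNC (horizontal axis) for every tested gene of 4 role groups of members (above the dotted line) and of 4 lists of other adhesion and actin genes (below it). Filled points passed an adjusted p of 0.05 and red bars are medians. The medians of the adaptors and of the other plaque proteins lie to the left of 0, and the medians of the actin assembly genes and of the actins lie to the right.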

How the data were processed

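Total RNA of 3 siNC and 3 siZEB1 cultures of SW480 cells was sequenced. The authors deposited 1 table of raw read counts per Ensembl gene for each culture. The submitters' processing notes name Trimmomatic, HISAT2, SAMtools and featureCounts and the build hg38. Versions, settings, the annotation release and the use of strand are not given in the sources used here. The deposited counts hold no row without a gene.

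The 6 tables were joined by gene, and each culture was put in its group by its label. The members and all gene lists were chosen with earlier results of these data known. Genes were filtered with filterByExpr, scaled by TMM and tested with the quasi-likelihood test of edgeR 4.0.16 in R 4.3.3 (siZEB1 against siNC, two-sided, no covariate), with Benjamini-Hochberg adjustment over all 14996 genes kept. The biological coefficient of variation was 6.58%. A call is an adjusted p under 0.05. The alternatives were DESeq2 1.42.0, other size factors, other filters, each of the 6 cultures removed in turn, a block for the replicate number, and a rule of fold over 1.5 with p under 0.001. At this depth, 19040636 to 22357633 counts per library, all but 2 members (ILK and CNN3) had 50 or more reads in each culture. The paired ratios used a pseudocount of 0.5 reads. Values in each culture are given for the 8 members called with the largest rises and falls, for members under 50 reads and for the relatives compared. Of the other genes the 5 largest called rises and falls were named, with ZEB1, the actins, SRF and the MRTF genes whatever their values, and other values were added after they were seen. Summaries of 1 role group and 1 other list are not reported here. Gene positions, exon lengths, overlaps and 3′UTRs came from GENCODE 29 (GRCh38). The test was checked on simulated counts in which a small part of the genes changed by 0.5 or 1 on the log2 scale. Changes smaller than 0.5, the size of most calls among the members, were not simulated.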

Additional observations from a re-analysis of the deposited data

How the results depend on the processing

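Of the 29 called members, 22 kept their call and direction under all 12 alternatives fitted per gene, 7 lost the call under at least 1 of them (TLN1, PARVA, FERMT2, LIMA1, CNN2, RHOA and CDC42), and none changed sign. Requiring a fold over 1.5 with an unadjusted p under 0.001 left 1 member higher and 3 lower, 2 of the other adhesion and actin genes higher and 11 lower, and 678 of all genes higher and 1004 lower. Leaving out 1 culture at a time gave 10 to 17 members higher and 13 to 15 lower, and moved the members' median log2 fold change between −0.0026 and 0.041. Of the genes not called, some changed sign when 1 culture was left out, with log2 fold changes from −0.44 to 0.31 for ILK, −0.054 to 0.046 for BCAR1, −0.014 to 0.060 for ARPC2, −0.13 to 0.028 for MYL9, −0.10 to 0.068 for RHOC, −0.11 to 0.025 for ROCK1, −0.019 to 0.19 for ROCK2 and −0.013 to 0.11 for SRF. The cause of these changes was not tested. The replicate numbers did not pair the cultures, since cultures with the same number had correlations of −0.33, −0.33 and −0.65 between their deviations from the group means over 9010 genes. Between cultures with different numbers the correlations ran from −0.40 to 0.55, the highest being siNC replicate 3 with siZEB1 replicate 2 and siNC replicate 1 with siZEB1 replicate 3. With the replicate number as a block, 11 members were higher and 12 lower, beside 2289 and 2679 of all genes. The members that lost their call under this block were TLN1, PARVA, FERMT2, LIMA1, RHOA and CDC42. Depth limits ILK and CNN3 among the members, which had fewer than 20 reads in every culture, and CNN1 and ARHGDIB among the other genes named.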
